A study of Homo sapiens with 3 samples.

Results

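RUNX transcription factors and the genes through which cartilage and bone cells lay down mineral were described in the human chondrocyte line C28/I2, which was made permanent in culture with the large T antigen of a virus. The 10 genes were taken by symbol from the authors' deposited table: RUNX1, RUNX2, RUNX3, MEF2C, DLX5, SPP1, IBSP, ALPL, PHOSPHO1 and ENPP1. All 10 were found among its 19215 genes, and all had a fold change between culture forms. RNA sequencing covered 3 libraries of 1 labelled group, the line grown as spheroids (cell aggregates) and given 0.5% DMSO, a drug solvent, for 48 h. The line was kept in DMEM with fetal bovine serum, with no mineralising supplement named. The labels give no separate origin for these libraries, so their spread may be technical. Monolayer cultures of the line, whose treatment no source used here gives, enter only through the authors' fold changes. A line adapted to culture is limited as a model of cartilage: of 8 chondrocyte markers, SOX9, the master factor of the lineage, was at 6.66, 6.66 and 6.81 FPKM in replicates 1, 2 and 3, and the other 7 averaged under 1 FPKM. Of the 7 markers tested between culture forms, 1 was higher in spheroids and 2 were lower by the call rule given below. COL2A1, the main cartilage collagen, was listed at 0.03, 0.01 and 0.01 FPKM, and CNMD, a cartilage glycoprotein gene, at 0 in each library.

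As background, chondrocytes of the growth plate stop dividing, enlarge (hypertrophy) and let their matrix mineralise before bone replaces it. RUNX2, together with RUNX3 and MEF2C, drives hypertrophy, and RUNX2 and DLX5 also drive osteoblasts, the cells that make bone. Mineral forms when phosphatases release phosphate and remove pyrophosphate, an inhibitor of crystal growth, while acidic matrix proteins bind and shape the crystals. Similar changes are known in osteoarthritic cartilage.

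The transcription factors RUNX1, DLX5 and RUNX2 were well expressed in spheroids, and each of the other 7 genes averaged under 2 FPKM. FPKM scales reads by transcript length and library total, so levels of different genes can be set side by side. DLX5 and RUNX1 both averaged 18.3 FPKM, with SDs of 2.15 and 1.31 (n = 3), and higher than 76.3% of the genes detected. RUNX2 averaged 11.4 ± 0.663 FPKM (SD, n = 3). ENPP1 followed at 1.72 ± 0.193, IBSP at 1.48 ± 0.427, ALPL at 1.2 ± 0.191, SPP1 at 1.08 ± 0.273, PHOSPHO1 at 0.827 ± 0.264, RUNX3 at 0.750 ± 0.0900 and MEF2C at 0.370 ± 0.0265 FPKM (SD, n = 3). In this order of levels, the ranges over the 3 libraries were apart between RUNX1 and RUNX2, between RUNX2 and ENPP1, where the mean dropped 6.66 times, and between RUNX3 and MEF2C. Neighbours from ENPP1 down to RUNX3, and the pair of DLX5 and RUNX1, overlapped and did not differ beyond their spread.

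**Figure D1:**
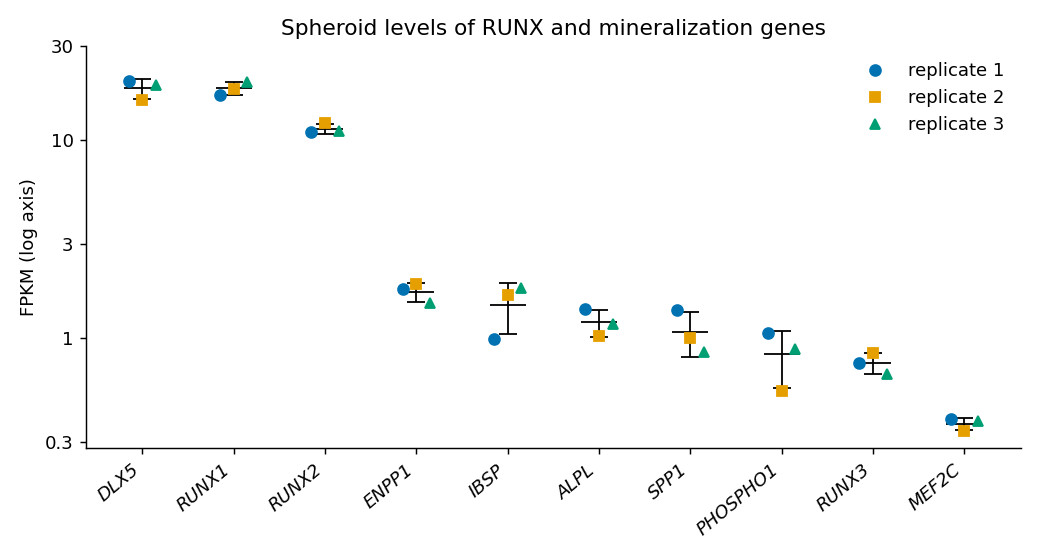
FPKM (log axis) of each gene in the 3 spheroid libraries, with the mean (bar) and SD (whiskers, n = 3). DLX5, RUNX1 and RUNX2 lie between 10.98 and 20.03 FPKM, and no other value exceeds 1.87 FPKM.

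Between culture forms, IBSP and MEF2C were higher in spheroids and PHOSPHO1 was lower, by 6.18, 1.97 and -1.14 log2 units in the authors' deposited table. These 3 of the 10 genes had an adjusted p under 0.05 and a log2 change of 1 or more in size, the rule for a call used here, against 20.8% of the 18467 genes tested. By direction, 2 were higher, against 11.5% of all genes, and 1 was lower, against 9.34%. Another 4 passed the adjusted p without reaching that fold: RUNX2 and ALPL with positive and DLX5 and ENPP1 with negative fold changes. By the adjusted p alone, 4 of 10 were thus higher and 3 lower, against 26.0% and 24.5% of all genes tested (50.4% in either direction). The median log2 change of the 10 was 0.31, against 0.04 over all tested genes. A positive value means higher in spheroids. In bulk RNA, fewer cells of a type and less RNA per cell cannot be told apart. The deposited table has no standard errors, so those below were computed from each fold change and its p-value as a Wald test would relate them. The sources used here do not state that a Wald test was used.

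**Figure D2:**
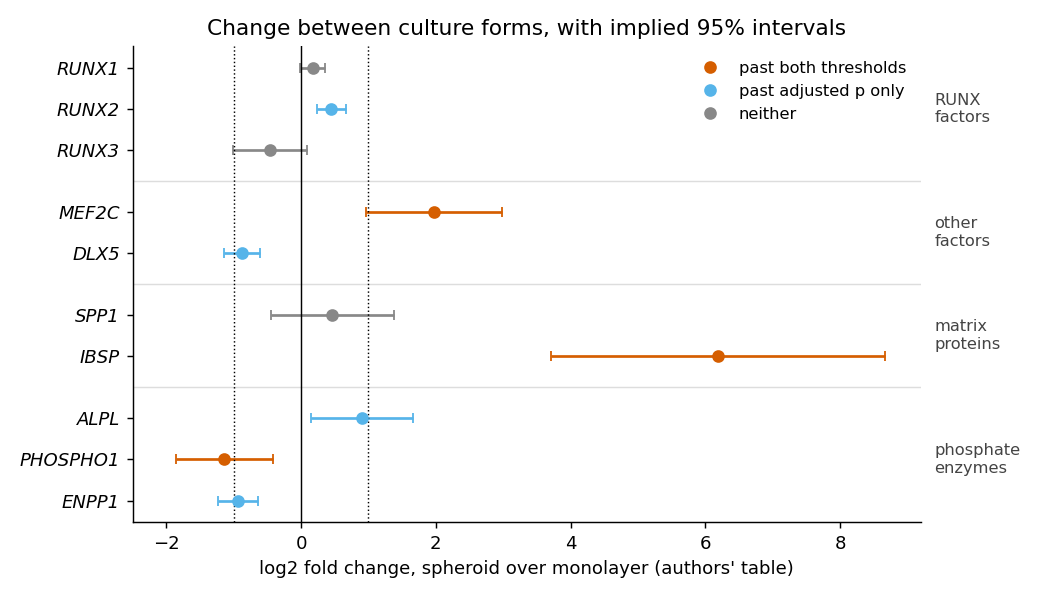
Log2 change (spheroid over monolayer) of the 10 genes in the authors' deposited table, grouped by role, with 95% intervals implied by the deposited p-values; dotted lines mark -1 and 1. IBSP, at 6.18, lies apart from the other 9, which span -1.14 to 1.97.

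RUNX factors bind DNA through a shared Runt domain with CBFB as partner. RUNX1, best known from blood stem cells and also present in chondrocyte precursors, was at 17.04, 18.27 and 19.66 FPKM in replicates 1, 2 and 3. RUNX2 was at 10.98, 12.20 and 11.14 FPKM. RUNX3 was at 0.75, 0.84 and 0.66 FPKM. The 3 ranges did not overlap, in the order RUNX1, RUNX2, RUNX3 in every library. Of the summed RUNX level, RUNX1 made up 60.0 ± 2.18%, RUNX2 37.5 ± 1.86% and RUNX3 2.46 ± 0.318% (SD, n = 3).

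Between culture forms, no RUNX gene reached the fold that the call requires. RUNX2 was at 0.45 (implied SE 0.112) log2 units in the authors' deposited table, which is 1.37-fold (DESeq2 adjusted p = 0.000168). RUNX1 was at 0.17 (implied SE 0.0924, adjusted p = 0.110) and RUNX3 at -0.47 (implied SE 0.280, adjusted p = 0.162) in the authors' deposited table. The implied 95% intervals, -0.01 to 0.35 for RUNX1 and -1.02 to 0.08 for RUNX3, bound what change these data allow. RUNX2 overlaps SUPT3H, a gene of a transcription coactivator complex, in the RefSeq annotation. No source used here gives the strandedness, so reads could be shared between them. SUPT3H averaged 2.88 ± 0.0889 FPKM (SD, n = 3), with a log2 change of -0.10 in the authors' deposited table. Antisense RNAs also overlap RUNX1, RUNX3 and MEF2C in that annotation and are not analysed here.

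The RUNX partners and co-repressors, a list of 17 genes, were all at 1 FPKM or more. By the call rule, 2 were higher, none was lower and 15 did not pass. At an unadjusted DESeq2 p under 0.05, 11 were higher and 2 lower. By the adjusted p alone the counts were the same, against 26.0% and 24.5% of all genes tested. CBFB was at 10.34, 11.29 and 11.83 FPKM, with a log2 change of -0.22 in the authors' deposited table (adjusted p = 0.139). TWIST1, which binds and restrains RUNX2, rose by 1.65 log2 units in the authors' deposited table (adjusted p = 1.04e-19). HDAC5, a class IIa histone deacetylase that represses RUNX2 and MEF2 factors, rose by 1.32 in the authors' deposited table. The close relative HDAC4, which restrains chondrocyte hypertrophy in mice, averaged 1.85 ± 0.0896 FPKM with a log2 change of 0.25 in the authors' deposited table (adjusted p = 0.178). The highest levels were those of TLE5, a short Groucho-family protein, at 229 ± 21.8 FPKM and STUB1, a ubiquitin ligase, at 100.4 ± 10.2 FPKM (SD, n = 3). The list's median log2 change was 0.30.

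MEF2C, a MADS-box factor required for hypertrophy in mice, was at 0.39, 0.34 and 0.38 FPKM in replicates 1, 2 and 3. These values are low and close together, with a coefficient of variation of 7.15% against a median of 26.2% for the 200 genes nearest in level. MEF2C rose by 1.97 (implied SE 0.512) log2 units in the authors' deposited table, which is 3.93-fold (DESeq2 adjusted p = 0.000341). Its relatives were more abundant and passed no call: MEF2A averaged 12.6 ± 0.513 and MEF2D 13.6 ± 1.58 FPKM (SD, n = 3), with log2 changes in the authors' deposited table of 0.53 and 0.70.

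DLX5, a homeodomain factor of skeletal cells, was at 20.03, 15.91 and 19.03 FPKM in replicates 1, 2 and 3. Its log2 change was -0.88 (implied SE 0.133) in the authors' deposited table, a 1.84-fold lower level (DESeq2 adjusted p = 2.53e-10), short of the fold the call requires. DLX genes stand in the genome as adjacent pairs, and DLX6, the neighbour of DLX5, fell by 1.68 (implied SE 0.137) log2 units in the authors' deposited table. DLX6 was at 4.75, 4.66 and 4.77 FPKM, so that DLX5 was 3.87 ± 0.414 times as abundant (SD, n = 3). DLX1 and DLX2, also in the list, were lower, with log2 changes in the authors' deposited table of -1.60 and -1.26. DLX3 and DLX4 were not called, with log2 changes there of 0.23 and 0.88 (DESeq2 adjusted p = 0.854 and 0.126). Whether DLX5 differed from DLX6 in fold change was not tested.

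Of the 17 MEF2, DLX, MSX and other osteogenic factors, 6 were higher and 6 lower at an unadjusted DESeq2 p under 0.05. By the adjusted p alone, 6 were higher and 5 lower, against 26.0% and 24.5% of all genes tested. By the call rule, 4 were lower, none was higher and 13 did not pass. The fourth was FOXC2, a forkhead factor named after its values were seen, whose log2 change was -1.2 in the authors' deposited table. The highest levels were those of KLF10, a TGF-beta-induced zinc finger factor, at 36.1 ± 3.82 FPKM, and MEF2D. SP7, the osteoblast factor downstream of RUNX2 also called osterix, was listed at 0, 0.09 and 0.02 FPKM, and its log2 change of 2.94 had an adjusted p of 0.338 in the authors' deposited table. The median log2 change of this list was 0.23.

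SPP1 and IBSP encode osteopontin and bone sialoprotein, acidic phosphoproteins that bind mineral and cell-surface integrins, and both are known targets of RUNX2. SPP1 was at 1.38, 1.00 and 0.85 FPKM in replicates 1, 2 and 3. IBSP was at 0.99, 1.65 and 1.79 FPKM. Their ranges overlapped, and their order differed between libraries: IBSP was at 0.717 times SPP1 in replicate 1 and at 1.65 and 2.11 times in replicates 2 and 3. Coefficients of variation were 25.4% for SPP1 and 28.9% for IBSP, against medians of 17.0% and 15.1% for the 200 genes nearest in level to each.

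IBSP rose by 6.18 (implied SE 1.26) log2 units in the authors' deposited table (DESeq2 adjusted p = 3.80e-06), and 51 genes of the table, itself included, had a fold change as large or larger. The implied 95% interval ran from 3.71 to 8.66. The size of the change is thus poorly fixed. Set against the spheroid mean, it places the monolayer level near 0.0203 FPKM, about the 0.01 step of the deposited values. That level is back-calculated, since the columns headed as monolayer FPKM match no listed sample and were not used here. SPP1 was at 0.47 (implied SE 0.465) in the authors' deposited table, with an adjusted p of 0.446 and an implied 95% interval from -0.44 to 1.38. The intervals of IBSP and SPP1 did not overlap, but the difference between them was not tested.

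Both genes belong to a chromosome 4 cluster of mineral-binding phosphoprotein genes that RefSeq orders as DSPP, DMP1, IBSP, MEPE and SPP1. DSPP and DMP1, of dentine and osteocytes, were listed at 0 in each of the 3 libraries. MEPE, a phosphoglycoprotein gene of osteocytes that lies next to IBSP, was at 0.29, 0.36 and 0.38 FPKM. MEPE rose by 5.43 (implied SE 1.43) log2 units in the authors' deposited table (DESeq2 adjusted p = 0.000414), again from an implied monolayer level at or under the 0.01 step. PKD2, the coding gene after SPP1, averaged 10.5 ± 0.828 FPKM (SD, n = 3) with a log2 change of -0.26 in the authors' deposited table (adjusted p = 0.0516). Within this stretch the adjacent genes IBSP and MEPE were called, and DSPP, DMP1, SPP1 and PKD2 were not.

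**Figure D3:**
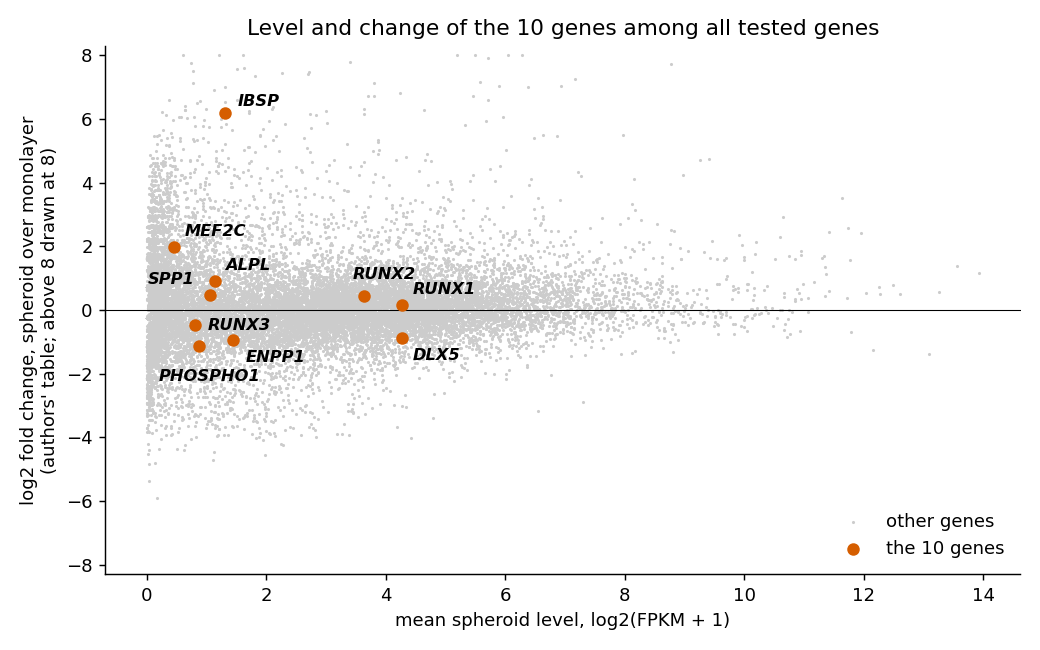
Mean spheroid level, log2(FPKM + 1), against the authors' log2 change for 18109 tested genes above 0 in any spheroid library (grey; 7 genes above 8 are drawn at 8), with the 10 genes in orange. IBSP, at 1.48 FPKM, lies high among genes of low level, and RUNX1, RUNX2 and DLX5 lie at higher levels, with log2 changes of 0.17, 0.45 and -0.88.

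Windows around annotated starts, 250 bases before to 50 after, came from RefSeq (GRCh38.p14) and matched 9 of the 10 genes, all but DLX5, with 19 windows in all. They are shown for RUNX2, at its first start, and for SPP1 and IBSP, since both are known RUNX2 targets whose fold changes lay apart. Capitals mark the RUNX core TGTGGT and its form TGCGGT, the homeodomain core TAATT and the CCAAT box, each on either strand, and no marked motif overlaps another in these windows. The first is chr6:45328080-45328379, the second chr4:87975464-87975763 and the third chr4:87799304-87799603, all on the plus strand.
RUNX2: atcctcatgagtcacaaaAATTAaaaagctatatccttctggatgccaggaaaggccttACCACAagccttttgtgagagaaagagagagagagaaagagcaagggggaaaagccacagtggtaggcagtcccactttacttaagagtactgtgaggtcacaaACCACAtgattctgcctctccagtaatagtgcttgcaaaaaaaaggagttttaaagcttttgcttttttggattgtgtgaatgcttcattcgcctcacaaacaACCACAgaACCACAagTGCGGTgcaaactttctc
SPP1: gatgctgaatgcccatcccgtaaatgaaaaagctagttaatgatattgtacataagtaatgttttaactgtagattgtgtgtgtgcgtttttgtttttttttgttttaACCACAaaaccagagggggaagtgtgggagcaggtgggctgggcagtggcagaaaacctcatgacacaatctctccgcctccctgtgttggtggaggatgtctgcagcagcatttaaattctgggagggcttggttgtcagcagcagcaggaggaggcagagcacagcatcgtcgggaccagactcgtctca
IBSP: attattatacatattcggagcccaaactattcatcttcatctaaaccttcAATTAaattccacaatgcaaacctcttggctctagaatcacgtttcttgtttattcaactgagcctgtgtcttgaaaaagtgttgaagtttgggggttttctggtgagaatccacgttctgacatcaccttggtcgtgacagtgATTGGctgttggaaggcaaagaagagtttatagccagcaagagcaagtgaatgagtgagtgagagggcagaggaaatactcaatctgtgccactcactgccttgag

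Counting the start site as 1 with no base 0, the RUNX2 window held TGTGGT at 4 places, all on the minus strand, beginning at -191, -87, 17 and 25, TGCGGT at 33 and TAATT at -232. At least 4 copies of TGTGGT were in 5 of 35116 windows of this length (0.0142%). The windows of 1 chromosome were left out of this and all other counts over windows here. The SPP1 window held 1 copy, at -142 on the minus strand, and at least 1 copy was in 13.1% of all windows. The IBSP window held none of either RUNX form, with TAATT at -200 (in 24.8% of all windows) and CCAAT at -56 (34.6%), both on the minus strand. Among the other 16 windows, TGTGGT was found in the first of RUNX3, which had 2 copies (at least 2 in 1.31% of all windows), and TGCGGT in 1 window each of ALPL and PHOSPHO1 (7.29% of all windows). These matches describe letters only, and values per gene do not show which start was used.

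Bone and mineral matrix proteins formed a list of 14 genes, of which 3 were higher, 1 lower and 10 not past the call rule. Besides MEPE, these were MGP, an inhibitor of calcification, which rose by 2.56 log2 units in the authors' deposited table, and BMP2, a bone-inducing growth factor gene, which rose by 1.77. MGP was at 10.93, 11.98 and 12.65 FPKM, above IBSP and SPP1 in every library. THBS1, a matricellular protein gene, fell by 2.65 in the authors' deposited table. Its level was 27.47 FPKM in replicate 1, above the 16.68 and 12.96 FPKM of the others. SPARC (osteonectin) and the collagen gene COL1A2 were the most abundant, at 884 ± 29.0 and 500.3 ± 15.3 FPKM (SD, n = 3). BGLAP (osteocalcin), a late osteoblast marker, was at 0.65, 0.50 and 0 FPKM. The list's median log2 change was -0.21.

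Several receptors for osteopontin and bone sialoprotein were expressed far above both ligands. ITGA5 averaged 588 ± 28 and ITGB1 552 ± 66.9 FPKM, and the osteopontin receptor gene CD44 averaged 304 ± 24.5 FPKM (SD, n = 3). Of 11 receptor genes, 2 were higher, none was lower and 9 did not pass. At an unadjusted DESeq2 p under 0.05, 7 were higher and none lower. By the adjusted p alone the counts were the same, against 26.0% and 24.5% of all genes tested. ITGA8 rose by 4.3 log2 units in the authors' deposited table at a level of 0.07, 0.10 and 0.09 FPKM, and ITGB8 rose by 1.05 at 2.60 ± 0.396 FPKM (SD, n = 3). The integrin pair best known for binding these ligands, ITGAV and ITGB3, averaged 25.8 ± 5.0 and 14.9 ± 1.32 FPKM (SD, n = 3). Their log2 changes were 0.37 and 0.94 in the authors' deposited table, short of the call. The list's median log2 change was 0.55.

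ALPL encodes tissue-nonspecific alkaline phosphatase, which splits pyrophosphate and frees phosphate at the cell surface. It was at 1.4, 1.02 and 1.18 FPKM in replicates 1, 2 and 3. Its log2 change was 0.91 (implied SE 0.385) in the authors' deposited table, which is 1.88-fold (DESeq2 adjusted p = 0.0372), short of the call. PHOSPHO1, a phosphatase that frees phosphate inside matrix vesicles, was at 1.06, 0.54 and 0.88 FPKM. PHOSPHO1 fell by 1.14 (implied SE 0.365) log2 units in the authors' deposited table, a 2.2-fold lower level (DESeq2 adjusted p = 0.00451). Its coefficient of variation, 31.9%, was the largest of the 10 genes, against a median of 17.9% for genes of like level.

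ENPP1 makes pyrophosphate outside the cell from ATP and so restrains mineral, the opposite of ALPL. It was at 1.78, 1.87 and 1.5 FPKM, above ALPL in each of the 3 libraries, with ALPL at 0.787, 0.545 and 0.787 times ENPP1. ENPP1 had a log2 change of -0.94 (implied SE 0.152) in the authors' deposited table, a 1.92-fold lower level (DESeq2 adjusted p = 2.82e-09), short of the call by its fold. The enzymes on either side of pyrophosphate thus had fold changes of opposite sign, and their implied 95% intervals, 0.15 to 1.66 for ALPL and -1.24 to -0.64 for ENPP1, did not overlap. The difference itself was not tested.

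Other genes of phosphate and pyrophosphate handling were 21, of which 2 were higher, 2 lower and 17 not past the call rule. ANKH, which exports ATP and pyrophosphate from the cell, was at 25.36, 29.02 and 23.27 FPKM and rose by 1.29 log2 units in the authors' deposited table. Its fold change was thus opposite in sign to that of ENPP1. ENPP5, a relative of ENPP1, rose by 1.64 in the authors' deposited table at 0.377 ± 0.105 FPKM (SD, n = 3). The placental-type alkaline phosphatase genes ALPG and ALPP were lower, with log2 changes in the authors' deposited table of -5.91 and -4.35. They averaged 0.133 ± 0.0850 and 0.417 ± 0.135 FPKM (SD, n = 3). They are near-identical copies that can share reads, so their separate values are uncertain. The phosphate transporter gene SLC20A1 averaged 65.5 ± 1.46 FPKM, and the most abundant were ANXA2 and ANXA5, annexins found in matrix vesicles, at 1412 ± 108 and 511 ± 5.83 FPKM (SD, n = 3). The list's median log2 change was 0.06.

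**Figure D4:**
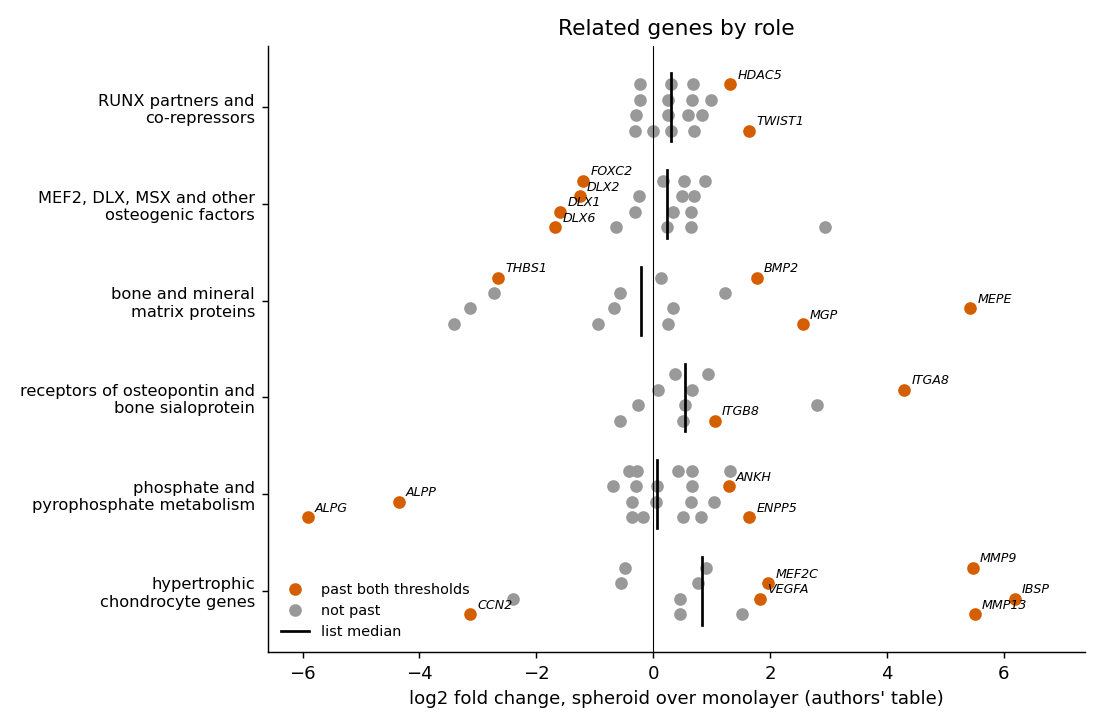
Log2 change (spheroid over monolayer) in the authors' deposited table for the genes of 6 lists by role; orange genes are past both thresholds, and vertical bars are list medians, from -0.21 to 0.84. Calls lie on both sides of 0 in the matrix, phosphate and hypertrophic lists.

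Hypertrophic chondrocyte genes, a list of 14 that holds 5 of the 10 genes, had 5 higher, 1 lower and 8 not past the call rule; without those 5 genes the counts were 3, 1 and 5. COL10A1, the collagen that defines hypertrophic chondrocytes, was at 0.09, 0.03 and 0.05 FPKM, with a log2 change of -0.48 in the authors' deposited table (adjusted p = 0.675). IHH, the hedgehog ligand of prehypertrophic cells, was at 0.03, 0.03 and 0.06 FPKM. The list's higher members outside the 10 genes were the collagenase gene MMP13, the gelatinase gene MMP9 and the angiogenic factor gene VEGFA, at 5.50, 5.47 and 1.83 in the authors' deposited table. CCN2, a matricellular growth factor gene, fell by 3.13 in the authors' deposited table. The median log2 change of this list was 0.84.

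Over the 6 related lists joined, without the 10 genes, 12 of 89 were higher and 8 lower by the call rule. These shares are near the 11.5% and 9.34% of all genes tested, and the median log2 change was 0.30. By the adjusted p alone, 36 of the 89 were higher and 18 lower, against 26.0% and 24.5% of all genes tested. These lists were drawn up with earlier results of these data known.

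With 3 libraries, any library often lies at an edge of the range, and replicate 1 did so for most of these genes. It had the lowest values of IBSP, RUNX1 and RUNX2 among the 3 libraries, and the highest of SPP1, ALPL, DLX5, PHOSPHO1 and MEF2C. Replicate 2 had the lowest values of DLX5, ALPL, PHOSPHO1 and MEF2C, and the highest of RUNX2, RUNX3 and ENPP1. For DLX5 and PHOSPHO1 it lay further from the mean of log2(FPKM + 1), at -0.186 and -0.236, than replicate 1, at 0.128 and 0.184. Replicate 1 also had the lowest MMP13 (209.65 FPKM against 267.98 and 268.29) and MMP9 (81.66 against 121.77 and 142.42), and the highest CCN2 (7.19 against 2.92 and 3.12). Their part in the IBSP and SPP1 values was not tested. Without replicate 1, IBSP averaged 1.72 FPKM and SPP1 0.925 FPKM.

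Among markers of other cell types, COL1A1 and ACP5 were the most abundant. Of 8 osteoblast and osteocyte markers, summing to 450.7 to 507 FPKM, 1 (MEPE) was higher and none lower by the call rule. At an unadjusted DESeq2 p under 0.05, 2 were higher and 2 lower. By the adjusted p alone, 1 was higher and 2 lower, against 26.0% and 24.5% of all genes tested. Nearly all of the sum was the collagen gene COL1A1, at 445.03, 466.49 and 501.73 FPKM in replicates 1, 2 and 3. COL1A1 had a log2 change of -0.95 in the authors' deposited table. DMP1 and SOST were at 0. Of 6 osteoclast markers, summing to 116 to 126 FPKM, none was called (2 higher and 0 lower at an unadjusted DESeq2 p under 0.05). By the adjusted p alone, 1 was higher and 0 lower. ACP5, a phosphatase gene also used in other cells, made up 115.6 ± 5.19 FPKM (SD, n = 3), and CALCR and DCSTAMP averaged under 0.02 FPKM. Of 6 macrophage markers, summing to 6.93 to 7.80 FPKM, 2 were higher and none lower by the call rule. At an unadjusted DESeq2 p under 0.05, 3 were higher and none lower, and the counts by the adjusted p alone were the same. Most of the sum was CSF1R, a growth factor receptor gene, at 6.27 ± 0.395 FPKM (SD, n = 3). PTPRC, the pan-leukocyte CD45 gene, was at 0, 0.01 and 0.06 FPKM. The part of such cells in the SPP1, IBSP and MEPE values was not tested.

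Likeness of pattern was measured as the distance over 4 values, the 3 spheroid log2(FPKM + 1) levels and the authors' log2 change, for the 7 genes at 1 FPKM or more. With 3 libraries no correlation is given. The nearest to IBSP was PLA2G2A, a secreted phospholipase gene, at a distance of 0.265, with RAMP3 at 0.478 and LRCH2 at 0.498. The nearest to RUNX2 was SELPLG at 0.0801, and the nearest to DLX5 was METTL3 at 0.146. For RUNX1 it was VPS37B at 0.0332, for SPP1 FAT2 at 0.143 and for ENPP1 WDR3 at 0.161. IBSP had the most distant nearest gene of the 7, 0.265 against 0.0332 to 0.161 for the others.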

How the data were processed

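Levels are FPKM to 2 decimals for 3 spheroid libraries, made by the authors, per the file headers. Each gene's log2 fold change, p-value and q-value (adjusted p) come from the authors' DESeq2 comparison of spheroid with monolayer, per the file headers. The submitters' processing notes name Bowtie2 2.2.5, RSEM 1.2.12, DESeq2 1.4.5 and GRCh38.p13, with no roles given. RNA was taken up in Trizol and sequenced with a company's own kit, per the labels' protocols; no source used here gives strandedness. With the depth unknown, counting error has no interval here; FPKM summed to 571705 to 623496 per library.

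Another 3 per-sample columns, headed as monolayer FPKM, match no listed sample and were used in no step, so the comparison was not refitted. Higher in spheroids is positive: of 358 genes at 0 in the 3 libraries, 356 had a fold change below 0. Calls required an adjusted p under 0.05 and a log2 fold change of 1 or more in size. Counts at an unadjusted DESeq2 p under 0.05 stand without a share over all genes, which was not computed. Standard errors were implied from fold change and p-value as in a Wald test. The 10 genes and all lists were chosen with earlier results of these data known. Named genes are the 10, up to 3 called genes per list and direction, the 2 highest per list, and the 3 nearest by pattern; not all are printed, and others were chosen after their values were seen. Calls, adjustment, implied errors and distances were tested on simulated data. Alternatives were no minimum fold, a minimum of 2, an adjusted p under 0.01, genes at 1 FPKM or more, centring on the median, median-ratio scaling, leaving out each replicate and a pseudocount of 0.1 in place of 1. Scripts ran under Python 3.11.15 with pandas 2.3.3, SciPy 1.17.1, NumPy 2.4.6 and, for figures, matplotlib 3.10.9.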

Additional observations from a re-analysis of the deposited data

How the results depend on the processing

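With no minimum fold change, 4 of the 10 genes were higher and 3 lower, against 26.0% and 24.5% of all genes tested. Of the 89 related genes, 36 were then higher and 18 lower. Their higher share was thus above that of all genes, and their lower share was under it. With a minimum of 2 on the log2 scale, 1 of the 10 genes was higher and 0 lower, and 5 and 4 of the related genes. Over all 18467 genes, 933 were then higher and 565 lower. MEF2C and PHOSPHO1 drop out because their fold changes lie under 2. At an unadjusted DESeq2 p under 0.05 with no fold limit, 4 of the 10 were higher and 3 lower, the same counts as by the adjusted p alone. For genes at 1 FPKM or more in spheroids, p-values were adjusted again over those genes alone. Of the 10 genes, 7 were at that level, with 1 higher and 0 lower, and 8 related genes were higher and 5 lower. Over all genes at that level, 1581 were higher and 1220 lower, without a share, which was not computed. This filter reads spheroid levels only and so removes genes that are low there, PHOSPHO1, ALPP and ALPG included. An adjusted p under 0.01 and centring on the median left the counts of the 10 genes at 2 and 1. Leaving out each replicate moved mean levels by 0.859 to 1.17 times. Pairs of the 10 genes with ranges apart, 36 of 45 with all libraries, were then 37 to 41, a count that cannot fall when a library is left out. Of 21 nearest genes, 18 were kept with a pseudocount of 0.1. No paired analysis was possible because the listed samples form 1 group. Values near 0.01 FPKM are coarse, and the implied monolayer levels of IBSP, MEPE and ITGA8 lie near or under that step. Their fold changes had implied SEs of 1.26, 1.43 and 1.44 log2 units, so their sizes are poorly fixed.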
